A study of Mus musculus with 20 samples.

Results

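The 49 genes described here encode the transporters and enzymes that take glucose through glycolysis to lactate, through the pentose phosphate pathway to ribose and NADPH, and through pyruvate dehydrogenase into the tricarboxylic acid (TCA) cycle. They were chosen by symbol, and all 49 were found among the 23284 genes of the deposited count table. RNA was sequenced from 20 libraries of sorted C57BL/6 thymocytes at the DN3 stage, in which cells that lack CD4 and CD8 depend on Notch1 and rearrange the T cell receptor beta gene. The study compared loss of Zmiz1, which encodes a coregulator of Notch1, with blockade of Notch1 itself.

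DeltaMxCre (3 libraries) came from MxCreZmiz1f/f mice, in which the interferon-inducible MxCre deletes floxed Zmiz1, and MxCre (3 libraries) from mice with that Cre and no floxed allele. Both groups had 5 injections of 40 µg pI-pC, 1 every 2 days, and were sorted 8 weeks later. AntiNRR (3 libraries) came from mice given 10 mg/kg of an antibody against the negative regulatory region of Notch1, and IgG (3 libraries) from mice given isotype antibody, both 24 h before collection. DeltaTamCre (4 libraries) came from Rosa26CreERT2Zmiz1f/f mice and TamCre (4 libraries) from Rosa26CreERT2 mice, both 43 to 44 h after 0.2 mg/g tamoxifen. Per the labels, each library of the 4 Cre groups was 1 mouse. The number of mice per antibody library was not stated in those labels, and p-values for that pair measure spread between samples that may be technical. MxCre also acts in other blood cells and in tissues that respond to interferon, and Rosa26CreERT2 in most tissues, so neither deletion was limited to thymocytes. The libraries of the Cre pair with MxCre and of the antibody pair were made with the SMARTer kit and those of the tamoxifen pair with TruSeq, and for the tamoxifen pair the kit and the mouse model cannot be told apart.

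Total counts were 11695668 to 19133149 per SMARTer library and 52615332 to 101425251 per TruSeq library. Zmiz1 was at 116 to 132 CPM (a gene's counts as a share of the TMM-scaled library total, in the usual CPM unit) in DeltaMxCre against 298 to 360 CPM in MxCre, and at 169 to 220 CPM in DeltaTamCre against 272 to 324 CPM in TamCre. The Notch1 target Dtx1 was at 4.95 to 15.8 CPM in AntiNRR against 162 to 191 CPM in IgG. The labels' sort gate reads CD44-positive and CD25-negative, the reverse of textbook DN3 cells, whereas the CD25 gene Il2ra lay at 543 CPM or more and Cd44 at 7.23 CPM or less in every library. Summed DN3 markers lay between 6392 and 14460 CPM, while summed myeloid markers reached 25.9 CPM, B cell markers 53.2 CPM and erythroid and platelet markers 11.1 CPM. In DeltaMxCre, 1 of the 8 DN3 markers fell (Rag1, at 1861 to 2250 CPM in DeltaMxCre against 3179 to 4038 CPM in MxCre), as did Cd44 among the early progenitor markers (0.550 to 0.755 CPM in DeltaMxCre against 3.78 to 7.23 CPM in MxCre), and no summed list separated these groups. In AntiNRR, 4 of the 8 DN3 markers fell and 1 rose, and their sum was 10140 to 11450 CPM in AntiNRR against 13790 to 14460 CPM in IgG. Summed early progenitor markers were at 162 to 221 CPM in AntiNRR against 98.7 to 117 CPM in IgG, and NK and innate lymphoid markers at 235 to 261 CPM in AntiNRR against 125 to 158 CPM in IgG. Gamma-delta markers were higher and B cell markers lower in AntiNRR, also without overlap. In the tamoxifen pair, early progenitor markers were at 59.3 to 77.7 CPM in DeltaTamCre against 51.1 to 58.3 CPM in TamCre, and NK and innate lymphoid markers at 217 to 243 CPM in DeltaTamCre against 275 to 292 CPM in TamCre. The lower sum lay in Gzma, which fell (129 ± 21.4 CPM in DeltaTamCre and 208 ± 10.6 CPM in TamCre, SD, n = 4 each), while Nkg7 of the same list averaged 87.5 ± 12.7 CPM in DeltaTamCre and 69.5 ± 4.78 CPM in TamCre. Their part in the results was not tested. In such bulk samples, fewer cells that express a gene and less of its RNA per cell cannot be told apart.

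Glycolysis starts when glucose enters through GLUT transporters and is trapped by a hexokinase, and phosphofructokinase then commits it to breakdown. Lactate dehydrogenase and the monocarboxylate transporters dispose of pyruvate as lactate, while pyruvate dehydrogenase passes it to the TCA cycle, a step that the pyruvate dehydrogenase kinases restrain. The pentose phosphate pathway branches off after hexokinase. Thymocytes proliferate strongly just after beta-selection, and Notch1, the pre-T cell receptor and MYC are known to support their glucose metabolism at this stage.

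Among the isozymes, levels per length came from the authors' deposited table of group-mean FPKM, whose values stop at 1. In MxCre, IgG and TamCre, Hk1 was the main hexokinase at 35.0, 32.8 and 40.7 FPKM, Hk2 stood at 6.15, 6.24 and 4.48 FPKM, and Hk3 lay close to the table's lowest value at about 1.1 FPKM. Pfkl was the highest of the phosphofructokinase genes, at 26.7, 26.0 and 33.6 FPKM in the same groups, above Pfkm and Pfkp. Gapdh and Ldha were among the highest members, with 195 and 215 FPKM in MxCre, 174 and 147 FPKM in IgG, and 1234 and 589 FPKM in TamCre. The table gave no match for Eno1.

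**Figure D1:**
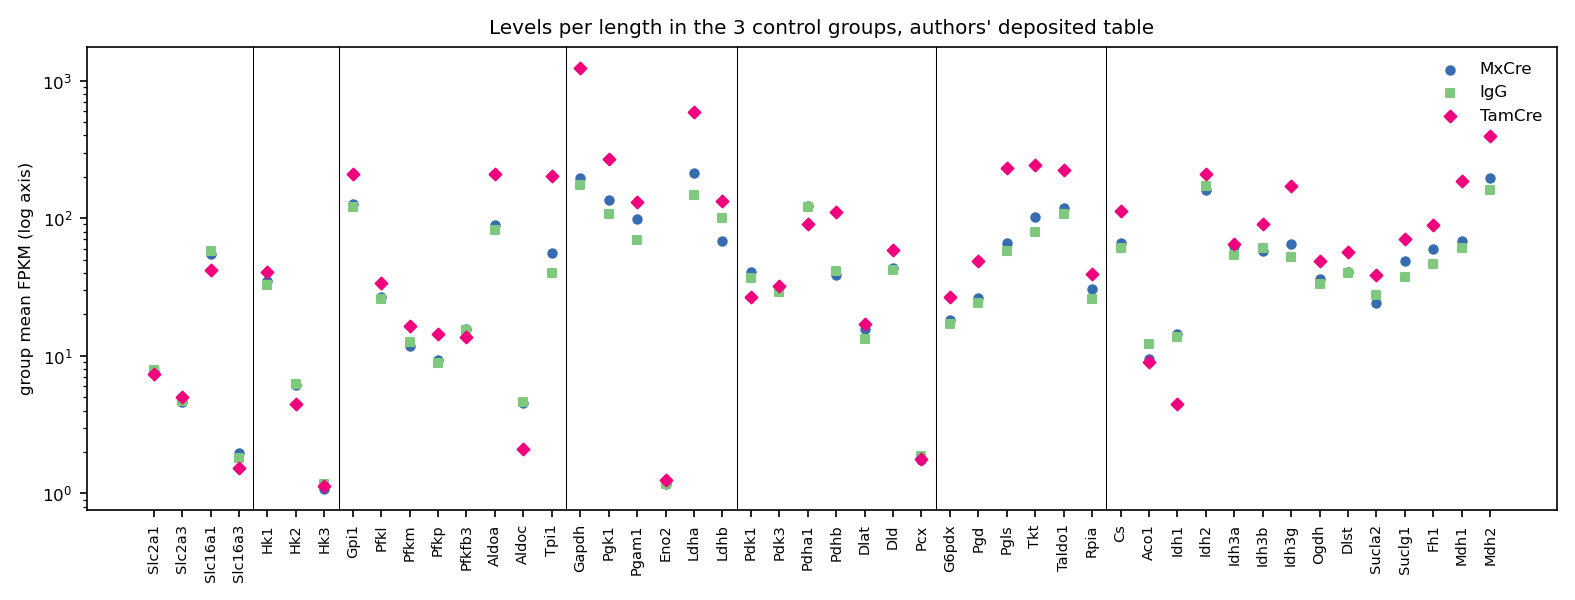
Each point is the authors' deposited group-mean FPKM of 1 gene (log axis) in MxCre, IgG or TamCre, with vertical lines between pathway branches. Hk2 lies below Hk1 in all 3 groups, and many glycolytic genes, such as Gapdh and Tpi1, are higher in TamCre, which was made with another kit.

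A gene was called when edgeR's quasi-likelihood test gave an adjusted p under 0.05 over all genes tested. All 49 members passed the filter on low counts in the main fits. In the alternative fit of the antibody pair alone, 48 members were tested. In DeltaMxCre against MxCre, 3 members fell (Pfkl, Tpi1 and Idh2) and 0 rose, where 1.27 percent of 13557 tested genes fell and 1.67 percent rose. In AntiNRR against IgG, 1 member fell (Hk2) and 0 rose, where 2.40 percent of genes fell and 1.66 percent rose. In DeltaTamCre against TamCre, edgeR called 0 members, where 0.0297 percent of 13460 genes fell and 0.0594 percent rose. There, 14 members had an unadjusted p under 0.05, all with estimates below 0, against 7.96 percent of all genes tested with such a p and an estimate below 0. DESeq2 called 5 members lower, where it called 2.11 percent of 11775 genes lower, and these 5 are named with the branches below. Of the 49 members, 17 had an unadjusted p under 0.05 in DeltaMxCre, all 17 with estimates below 0. In AntiNRR 10 members did, 8 of them with estimates below 0. In either direction, 16.5, 16.3 and 16 percent of all genes had an unadjusted p under 0.05 in DeltaMxCre, AntiNRR and DeltaTamCre.

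Beyond these calls, most members had small estimates below 0 in each comparison. Of 49 members, 41 had a log2 fold change below 0 in DeltaMxCre against MxCre, 38 in AntiNRR against IgG and 43 in DeltaTamCre against TamCre. Among all genes tested, 53.3, 51.7 and 46.2 percent did. The members' median log2 fold changes were -0.184, -0.207 and -0.133 in these comparisons, beside -0.032, -0.018 and 0.020 over all genes. The estimate was below 0 in all 3 comparisons for 32 members and above 0 in all 3 for 2 (Hk1 and Eno2, the second at low counts with SE of 0.40 to 1.57).

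How far the libraries separated was read gene by gene. Every DeltaMxCre library lay below every MxCre library for 11 of 49 members (22.4 percent), against 10.8 percent of all genes, and above for 0 members, against 10.2 percent. Every AntiNRR library lay below every IgG library for 10 members (20.4 percent), against 11.3 percent, and above for 1 member (Ogdh, a subunit of the oxoglutarate dehydrogenase complex), against 10.3 percent. Every DeltaTamCre library lay below every TamCre library for 3 members (Pfkl, G6pdx and Idh3g; 6.12 percent), close to the 5.75 percent of all genes, and above for 0, against 4.84 percent. Pfkl separated in this way in all 3 comparisons, and Hk2 in the first and second.

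**Figure D2:**
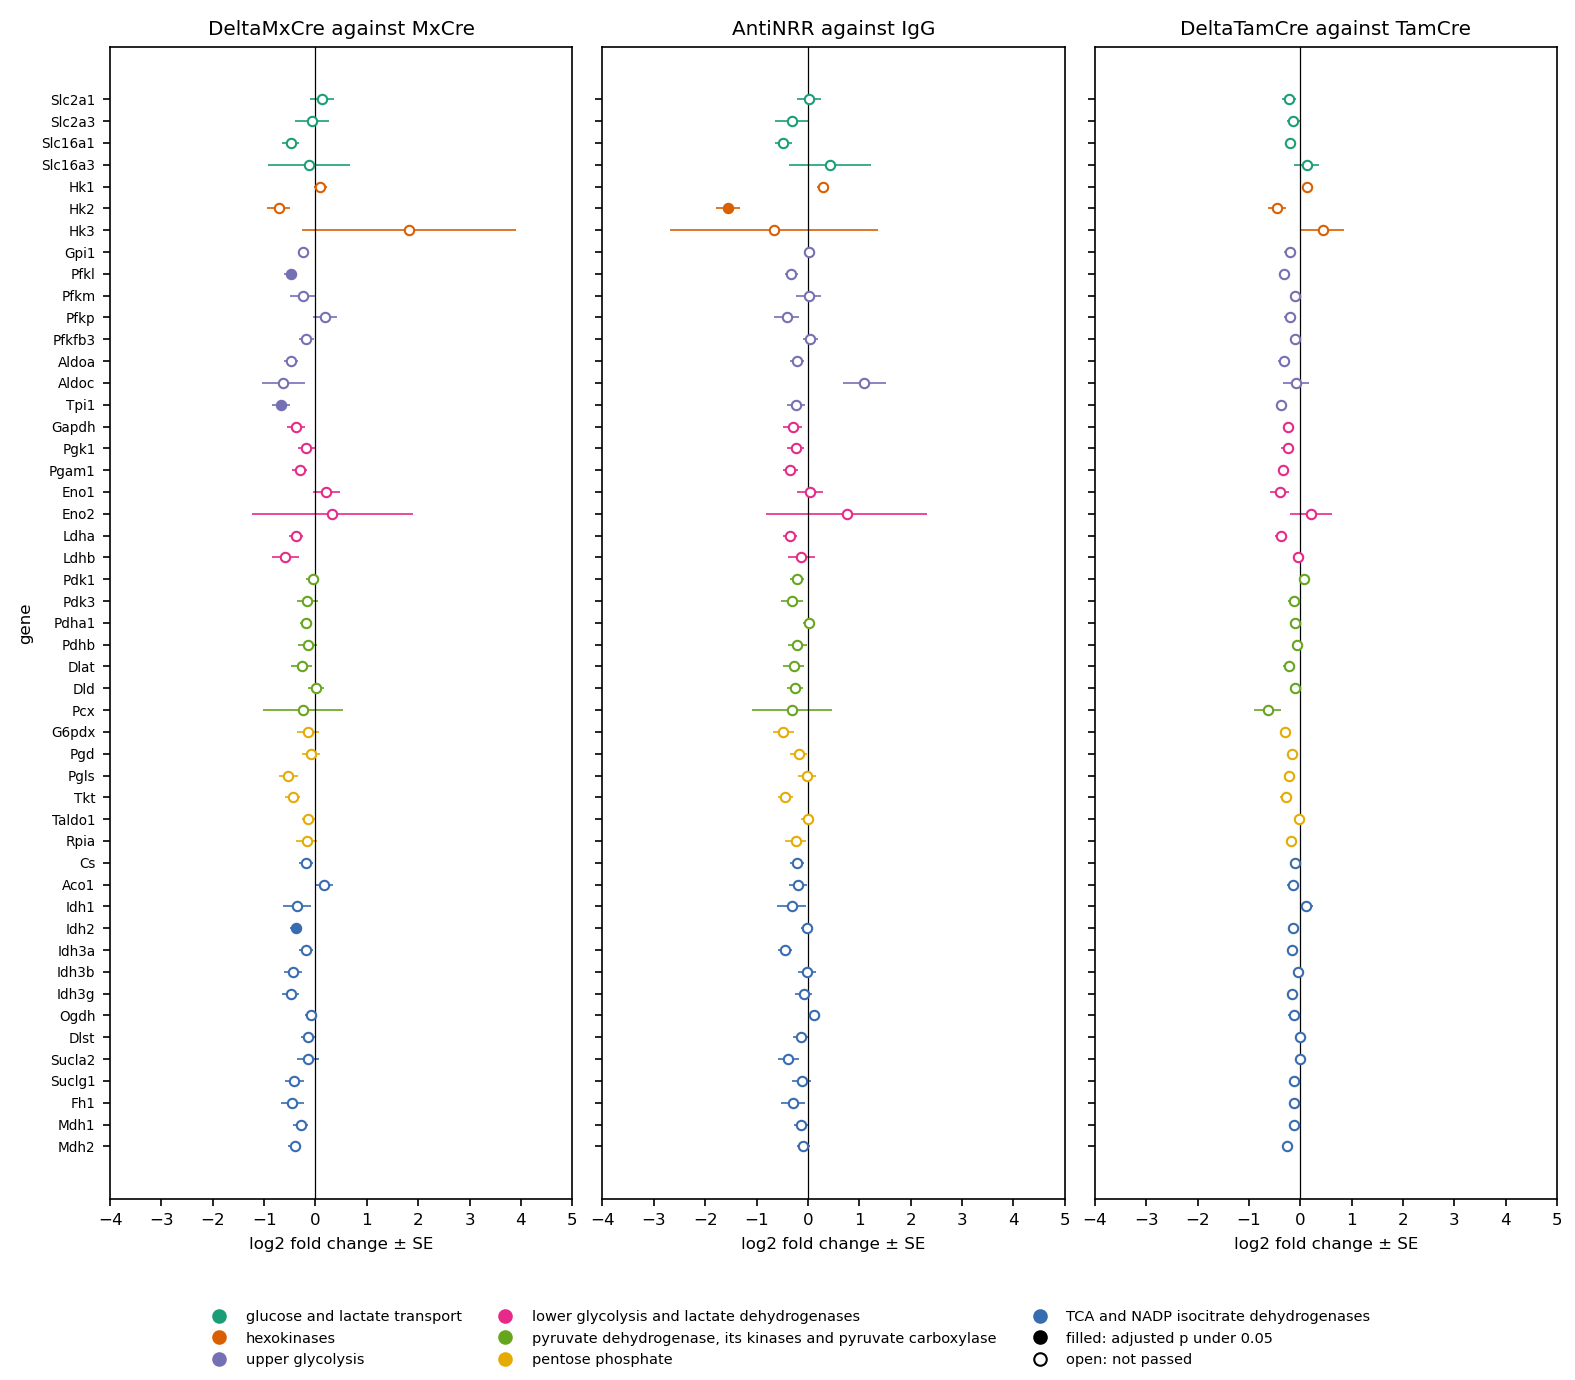
Points are edgeR log2 fold changes of the 49 members and bars their SE in DeltaMxCre against MxCre, AntiNRR against IgG and DeltaTamCre against TamCre, coloured by branch, filled where the adjusted p is under 0.05. The filled points are Pfkl, Tpi1 and Idh2 on the left and Hk2 in the middle, and most open points lie left of 0.

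Hk2, which encodes the inducible hexokinase that binds mitochondria and rises in many proliferating and tumour cells, had the largest change of the members that passed. It spans chr6:82725025-82774454 (GRCm38, minus strand). Hk2 was at 12.98, 14.5 and 9.78 CPM in the AntiNRR libraries, against 36.4, 41.2 and 31.8 CPM in the IgG libraries. The highest AntiNRR library lay far below the lowest IgG library. Hk2 thus averaged 12.4 ± 2.42 CPM in AntiNRR and 36.5 ± 4.71 CPM in IgG (SD, n = 3 each), and fell by 1.55 ± 0.23 (SE) on the log2 scale (edgeR adjusted p = 0.000149). This call held in all 18 alternative settings, with log2 fold changes from -1.67 to -1.41.

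In DeltaMxCre, Hk2 was at 27.9, 19.7 and 20.6 CPM, against 38.2, 38.5 and 35.1 CPM in MxCre. These libraries did not overlap either, but the test was not passed (log2 fold change -0.72 ± 0.23, adjusted p = 0.0862), except with DESeq2 (adjusted p = 0.0385). In DeltaTamCre, Hk2 was at 17.3, 24.3, 19.4 and 21.2 CPM, against 39.3, 22.4, 21.8 and 29.1 CPM in TamCre. Here the groups overlapped, TamCre 1 stood above the other TamCre libraries, and the test was not passed (-0.45 ± 0.18, adjusted p = 0.269).

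Whether the Hk2 response differed between perturbations was tested directly. The DeltaMxCre effect minus the AntiNRR effect was 0.84 ± 0.32 on the log2 scale (adjusted p = 0.245). The AntiNRR effect minus the DeltaTamCre effect was -1.06 ± 0.29 (adjusted p = 0.093), and it passed when TamCre 1 was left out or with DESeq2. The DeltaMxCre effect minus the DeltaTamCre effect was -0.22 ± 0.29 (adjusted p = 1). A test that was not passed does not show that the responses were alike.

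Hk1, the constitutive hexokinase, did not follow Hk2. Its CPM were 174, 183 and 205 in AntiNRR against 130, 177 and 151 in IgG (0.30 ± 0.12, adjusted p = 0.208), 182, 178 and 189 in DeltaMxCre against 173, 160 and 182 in MxCre (0.09 ± 0.12, adjusted p = 0.797), and 188, 233, 212 and 192 in DeltaTamCre against 190, 173, 190 and 197 in TamCre (0.14 ± 0.08, adjusted p = 0.441). The ratio of Hk2 to Hk1 counts within a library, with no correction for length, removes differences in scaling between libraries. It was 0.0744, 0.0794 and 0.0477 in AntiNRR against 0.281, 0.233 and 0.21 in IgG. It was 0.153, 0.111 and 0.109 in DeltaMxCre against 0.221, 0.241 and 0.193 in MxCre, and 0.0922, 0.104, 0.0914 and 0.11 in DeltaTamCre against 0.207, 0.129, 0.115 and 0.147 in TamCre. The ratio was thus lower without overlap in each of the 3 perturbed groups, narrowly so in DeltaTamCre. Other isozyme ratios were examined too. Those of Ldha to Ldhb, Pfkl to Pfkm, Slc2a1 to Slc2a3, Pdk1 to Pdk3 and Idh2 to Idh1 overlapped in every comparison. The ratio of Pfkl to Pfkp was lower without overlap in DeltaMxCre alone, and that of Aldoa to Aldoc in AntiNRR alone. Hk3, a hexokinase of myeloid cells, had at most 1.83 CPM in any library and 0 in several, too few counts for a comparison in the SMARTer libraries.

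**Figure D3:**
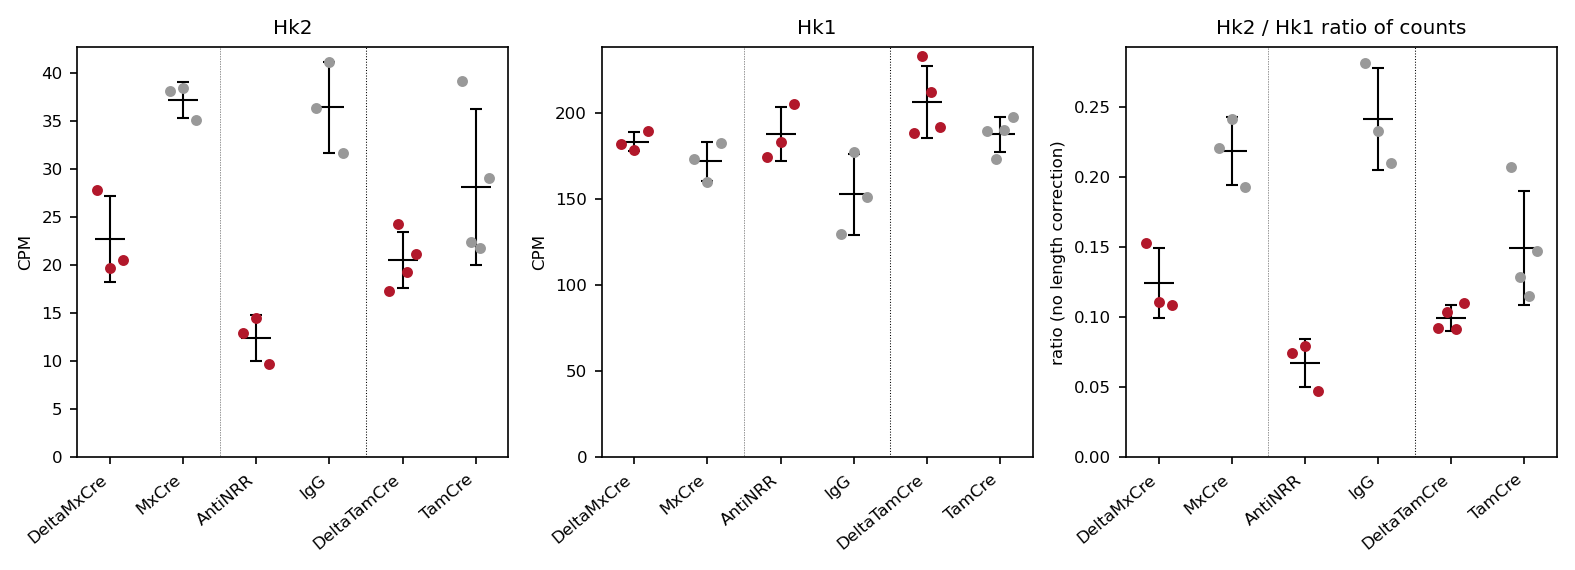
Points are libraries and bars the mean ± SD of Hk2 CPM, Hk1 CPM and the Hk2 to Hk1 ratio of counts, perturbed groups in red and controls in grey, with CPM scaled within each kit. Hk2 is lowest in AntiNRR, and its ratio to Hk1 separates every perturbed group from its control.

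The windows of 250 bases before the RefSeq transcription start (GRCm38.p6) are printed for the 4 members that were called, and for Ldha as a member that was not called but holds a motif bound by MYC. They were searched on both strands for CACGTG, the E-box bound by MYC, for ACGTG or GCGTG, the core of hypoxia response elements, and for TGGGAA, the core bound by the Notch effector RBPJ. CACGTG contains ACGTG on each strand, so each such E-box also counts as a pair of overlapping matches to the second motif. Matches to the first and second motif are in capitals.
Hk2 promoter, chr6:82774455-82774704, minus strand: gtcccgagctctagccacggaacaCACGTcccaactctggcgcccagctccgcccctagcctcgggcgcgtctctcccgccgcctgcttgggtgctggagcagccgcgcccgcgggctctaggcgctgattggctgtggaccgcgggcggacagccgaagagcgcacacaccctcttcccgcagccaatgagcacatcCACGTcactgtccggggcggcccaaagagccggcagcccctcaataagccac
Pfkl promoter, chr10:78009808-78010057, minus strand: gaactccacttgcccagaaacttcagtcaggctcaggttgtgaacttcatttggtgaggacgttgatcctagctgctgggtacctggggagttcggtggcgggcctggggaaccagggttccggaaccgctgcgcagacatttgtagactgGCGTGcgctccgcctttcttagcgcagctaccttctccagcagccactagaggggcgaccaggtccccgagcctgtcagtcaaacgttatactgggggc
Tpi1 promoter, chr6:124814159-124814408, minus strand: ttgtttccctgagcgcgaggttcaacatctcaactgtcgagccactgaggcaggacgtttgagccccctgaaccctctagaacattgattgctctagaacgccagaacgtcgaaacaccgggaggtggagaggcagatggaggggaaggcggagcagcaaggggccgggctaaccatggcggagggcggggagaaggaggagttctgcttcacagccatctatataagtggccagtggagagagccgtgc
Idh2 promoter, chr7:80115351-80115600, minus strand: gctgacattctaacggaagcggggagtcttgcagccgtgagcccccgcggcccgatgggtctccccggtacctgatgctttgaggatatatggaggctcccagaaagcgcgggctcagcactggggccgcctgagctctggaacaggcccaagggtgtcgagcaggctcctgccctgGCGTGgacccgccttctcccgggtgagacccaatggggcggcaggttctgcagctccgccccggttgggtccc
Ldha promoter, chr7:46845554-46845803, plus strand: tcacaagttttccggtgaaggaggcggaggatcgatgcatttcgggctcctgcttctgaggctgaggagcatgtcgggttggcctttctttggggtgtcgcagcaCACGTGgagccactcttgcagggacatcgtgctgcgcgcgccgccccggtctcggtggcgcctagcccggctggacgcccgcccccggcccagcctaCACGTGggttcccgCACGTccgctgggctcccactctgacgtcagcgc
CACGTG was found 2 times in the Ldha window printed, at 145 and 48 bases before the start, and not in the other windows printed. A second Ldha window (chr7:46846832-46847081), not printed, held CACGTG 0 times. It held ACGTG or GCGTG 1 time, at 59 bases before its start. ACGTG or GCGTG was found in the Hk2 window at 226 and 52 bases before the start, in the Pfkl window at 99, in the Idh2 window at 73, and not in the Tpi1 window. TGGGAA was found in none of these 5 windows. Of 32851 promoter windows of this length, 6.02 percent held CACGTG, 38.6 percent ACGTG or GCGTG and 21.6 percent TGGGAA. Of the 47 members with a window, some with more than 1, 6 held CACGTG, 37 held ACGTG or GCGTG, and 12 held TGGGAA in at least 1 window. Counted by window, as the shares over all windows are, 8, 50 and 14 of 67 member windows held these motifs. A match describes letters and is no evidence of binding.

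Glucose and lactate transport held 4 members and 0 calls in each comparison, with 1 at an unadjusted p under 0.05 in each. Slc2a1, which encodes GLUT1, the main glucose transporter of proliferating lymphocytes, was at 23.3, 22.5 and 24.4 CPM in DeltaMxCre against 21.6, 17.4 and 25.4 CPM in MxCre. It was at 21.9, 18.9 and 23.6 CPM in AntiNRR against 21.2, 18.9 and 23.3 CPM in IgG, and at 16, 20.1, 19.7 and 22.97 CPM in DeltaTamCre against 28.0, 19.9, 20.1 and 23.4 CPM in TamCre. The groups overlapped throughout, with log2 fold changes of 0.12 ± 0.24, 0.02 ± 0.24 and -0.21 ± 0.14 (adjusted p = 0.873, 0.985 and 0.468). Slc16a1, which encodes the lactate carrier MCT1, had 143, 153 and 151 CPM in AntiNRR against 246, 212 and 165 CPM in IgG. The AntiNRR libraries lay below all IgG libraries without passing the test (-0.48 ± 0.16, adjusted p = 0.114), which it passed in a fit of the pair alone and without MxCre 3. Slc2a3, the gene of the neuronal-type transporter GLUT3, had no estimate beyond 0.31 in size, and Slc16a3, which encodes the lactate exporter MCT4, stayed at or below 4.62 CPM.

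In upper glycolysis, 2 of 8 members fell in DeltaMxCre, and 0 were called in AntiNRR or DeltaTamCre. Pfkl encodes the liver-type phosphofructokinase subunit (chr10:77986947-78009807). It was at 85.3, 84.1 and 72.8 CPM in DeltaMxCre against 108, 117 and 113 CPM in MxCre. These libraries did not overlap, and Pfkl fell by 0.48 ± 0.13 on the log2 scale (means 80.7 ± 6.92 CPM in DeltaMxCre, 113 ± 4.71 CPM in MxCre, SD, n = 3 each; edgeR adjusted p = 0.0368). This call was lost when any 1 library of the pair or any 1 IgG library was left out, with no filter and in a fit of the pair alone, with adjusted p up to 0.218. Pfkl was at 91.6, 83.0 and 84.1 CPM in AntiNRR against 104, 109 and 110 CPM in IgG (-0.32 ± 0.13, adjusted p = 0.193). It was at 104, 128, 120 and 122 CPM in DeltaTamCre against 166, 131, 140 and 152 CPM in TamCre (-0.31 ± 0.09, adjusted p = 0.159, and 0.0459 with DESeq2). The libraries did not overlap in these comparisons either, although the gap between the nearest DeltaTamCre and TamCre libraries was small.

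Tpi1 encodes triosephosphate isomerase, which interconverts the products of aldolase (chr6:124810586-124814158). It was at 54.1, 54.5 and 55.1 CPM in DeltaMxCre against 78.4, 76.8 and 105 CPM in MxCre. The groups did not overlap, MxCre 3 was the highest, and Tpi1 fell by 0.67 ± 0.17 on the log2 scale (adjusted p = 0.0291). The call was lost without any 1 DeltaMxCre library or without MxCre 3 (then -0.50, adjusted p = 0.141), and in a fit of the pair alone (adjusted p = 0.0561). Tpi1 was at 41.5, 48.7 and 65.98 CPM in AntiNRR against 63.5, 61.2 and 57.8 CPM in IgG (-0.23 ± 0.17, adjusted p = 0.585). It was at 232, 294, 238 and 250 CPM in DeltaTamCre against 385.8, 275, 321 and 331 CPM in TamCre (-0.37 ± 0.11, adjusted p = 0.16, and 0.0381 with DESeq2). In both, single libraries overlapped.

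Pfkm and Pfkp, which encode the muscle and platelet types of phosphofructokinase, were not called. Pfkp was at 54.1, 40.7 and 37.1 CPM in DeltaMxCre against 34.9, 27.7 and 52.6 CPM in MxCre, at 28.3, 20.6 and 29.8 CPM in AntiNRR against 41.3, 35.9 and 27.9 CPM in IgG, and at 46.9, 55.7, 45.9 and 49.2 CPM in DeltaTamCre against 67.3, 44.2, 58.4 and 56.9 CPM in TamCre. Pfkm was at 33.5, 26.0 and 29.7 CPM in DeltaMxCre against 28.3, 38.3 and 39.5 CPM in MxCre, at 36.1, 31.9 and 49.1 CPM in AntiNRR against 44.1, 23.1 and 48.5 CPM in IgG, and at 38.4, 42.7, 46.7 and 43.3 CPM in DeltaTamCre against 45.5, 45.3, 44.4 and 47.5 CPM in TamCre. Both genes overlapped between groups in every comparison. The ratio of Pfkl to Pfkp counts was 1.58, 2.07 and 1.96 in DeltaMxCre against 3.08, 4.24 and 2.14 in MxCre, lower without overlap, and it overlapped in the other comparisons.

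Of the remaining upper genes, Aldoa, the main aldolase gene, came closest to a call in DeltaMxCre (103 ± 10.6 CPM in DeltaMxCre against 143 ± 21.3 CPM in MxCre, -0.47 ± 0.14, adjusted p = 0.0557), and DESeq2 called it. Aldoc, the brain-type aldolase gene and known to respond to hypoxia, was at 22.4, 8.96 and 19.4 CPM in AntiNRR against 10.1, 5.17 and 8.42 CPM in IgG. AntiNRR 2 lay within the IgG range, and the estimate of 1.10 ± 0.42 did not pass (adjusted p = 0.158). The Aldoa to Aldoc ratio of counts was 5.35, 11.9 and 5.57 in AntiNRR against 14.6, 22.3 and 14.5 in IgG, lower without overlap. Gpi1 (glucose-6-phosphate isomerase) and Pfkfb3 (which makes the allosteric activator of phosphofructokinase) had estimates between -0.24 and 0.05.

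Lower glycolysis and the lactate dehydrogenases held 7 members and 0 edgeR calls, with 4, 2 and 3 members at an unadjusted p under 0.05 in DeltaMxCre, AntiNRR and DeltaTamCre. Ldha, which encodes the subunit that favours lactate formation (chr7:46842274-46855627), was at 335, 242 and 211 CPM in DeltaMxCre against 328, 297 and 401 CPM in MxCre. It was at 173, 182 and 188 CPM in AntiNRR against 244, 223 and 225 CPM in IgG, and at 597, 751, 630 and 663 CPM in DeltaTamCre against 1017, 713, 843 and 860 CPM in TamCre. The AntiNRR and IgG libraries did not overlap, while 1 DeltaMxCre and 1 DeltaTamCre library reached into the range of the controls. The log2 fold changes were nearly equal, at -0.38 ± 0.14, -0.35 ± 0.14 and -0.38 ± 0.11 (adjusted p = 0.142, 0.18 and 0.157). Leaving out 1 library gave -0.59 to -0.24 in DeltaMxCre, with the weaker end without MxCre 3 or DeltaMxCre 3. Ldha was called without DeltaMxCre 1 (-0.59, adjusted p = 0.0143), in a fit of the antibody pair alone (adjusted p = 0.0443), and by DESeq2 in DeltaTamCre (adjusted p = 0.0312).

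Pgam1, which encodes phosphoglycerate mutase, had estimates of -0.30 ± 0.14 in DeltaMxCre, -0.35 ± 0.15 in AntiNRR and -0.34 ± 0.10 in DeltaTamCre (adjusted p = 0.287, 0.216 and 0.164). DESeq2 also called it in DeltaTamCre. Gapdh and Pgk1, the genes of the oxidative and first ATP-forming steps, had estimates between -0.38 and -0.18 in all 3 comparisons. Ldhb, which encodes the heart-type subunit, was at 60.4, 57.5 and 48.6 CPM in DeltaMxCre against 87.9, 119 and 43.1 CPM in MxCre, where MxCre 3 was the lowest of all (-0.58 ± 0.27, adjusted p = 0.302). Without MxCre 3 it was called in DeltaMxCre, and its DeltaMxCre effect then also differed from the AntiNRR and the DeltaTamCre effect. Eno1 (enolase) carried fractional counts in 16 libraries, had estimates of 0.21, 0.04 and -0.40, and Eno2 (neuronal enolase) stayed at or below 1.52 CPM. Gapdh, Tpi1, Ldha, Pgam1 and Eno1 have near-identical processed pseudogenes, and how their shared reads were counted is not given in the labels or headers.

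**Figure D4:**
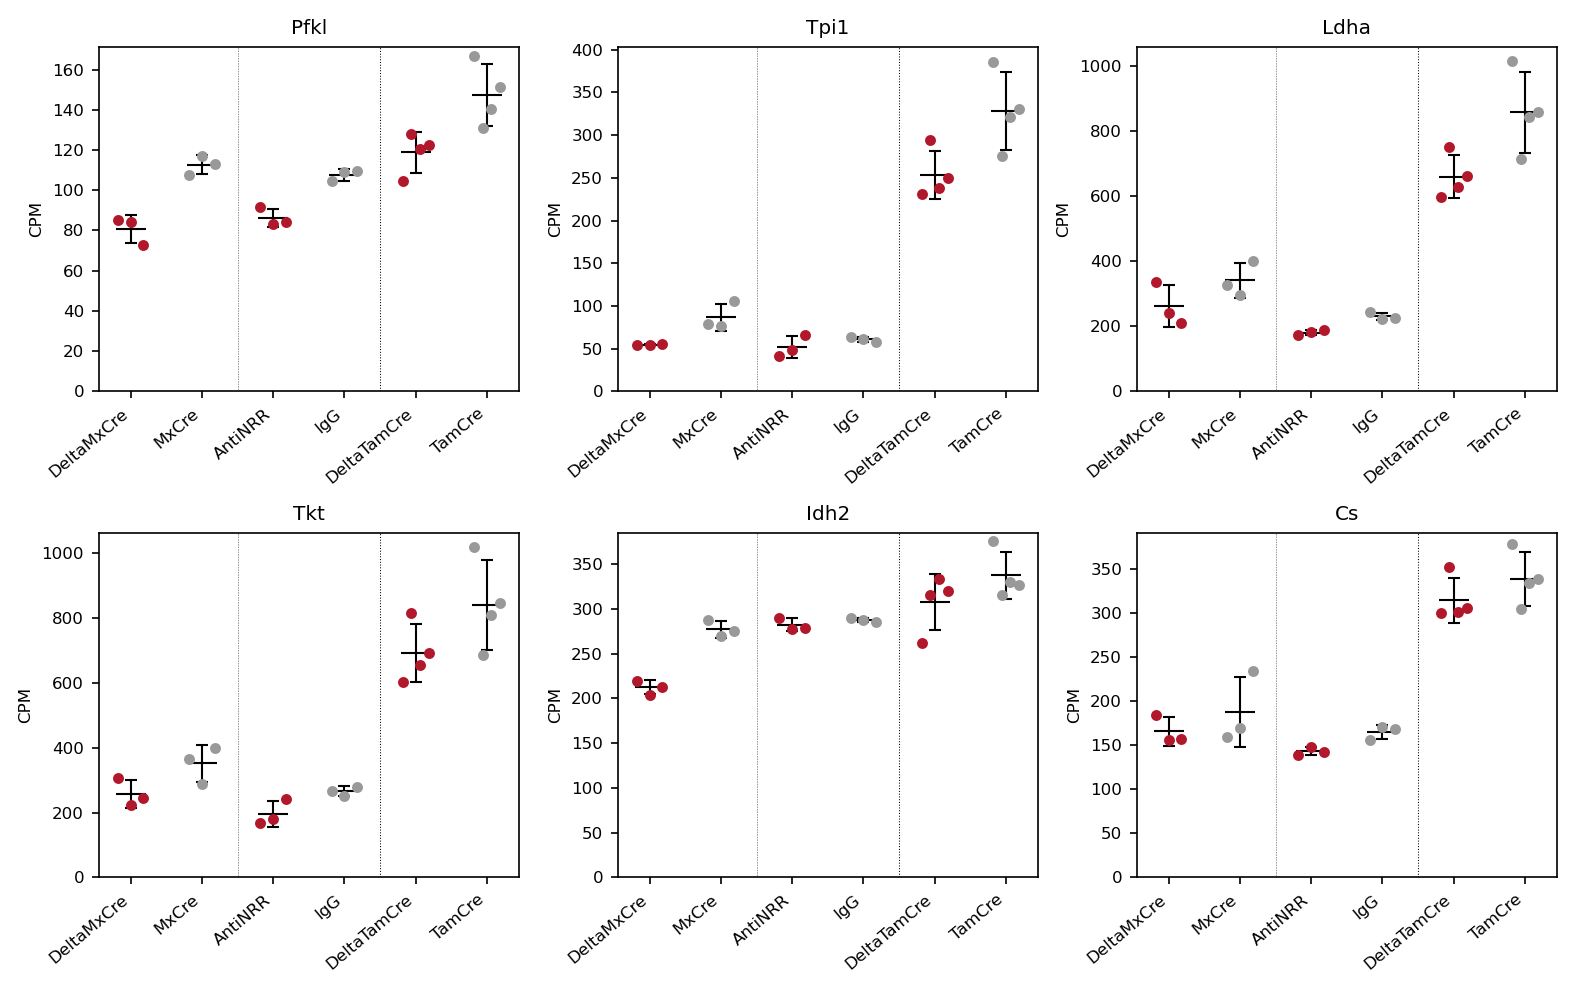
Points are the CPM of each library and bars the mean ± SD for Pfkl, Tpi1, Ldha, Tkt, Idh2 and Cs, perturbed groups in red and controls in grey, scaled within each kit. Pfkl lies lower in each perturbed group without overlap, Idh2 lies lower in DeltaMxCre with no such gap in AntiNRR, and MxCre 3 and TamCre 1 are the highest controls for Tpi1, Ldha, Tkt and Cs.

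The genes that admit pyruvate to the mitochondrion's oxidative route held 7 members and 0 calls by edgeR or DESeq2, with 0, 0 and 1 at an unadjusted p under 0.05 in DeltaMxCre, AntiNRR and DeltaTamCre. Pdk1, whose kinase inhibits pyruvate dehydrogenase, was at 172, 186 and 198 CPM in DeltaMxCre against 163, 225 and 191 CPM in MxCre, at 145, 121 and 163 CPM in AntiNRR against 180, 152 and 164 CPM in IgG, and at 116, 146, 145.5 and 149 CPM in DeltaTamCre against 142, 126, 127 and 131 CPM in TamCre. The groups overlapped each time, with estimates of -0.06 ± 0.13, -0.21 ± 0.13 and 0.08 ± 0.09 (adjusted p = 0.892, 0.481 and 0.675). The pyruvate dehydrogenase subunits Pdha1, Pdhb, Dlat and Dld and the kinase Pdk3 had estimates between -0.30 and 0.02. Pcx, which encodes pyruvate carboxylase, stayed at or below 6.93 CPM and was the gene with an unadjusted p under 0.05 in DeltaTamCre. It was at 2.18, 2.17, 2.97 and 2.06 CPM in DeltaTamCre against 5.33, 2.14, 3.40 and 3.70 CPM in TamCre, with TamCre 2 inside the DeltaTamCre range. Its estimate of -0.63 ± 0.26 was the lowest of the members there and did not pass (adjusted p = 0.275). Without TamCre 1 it was -0.40.

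All 6 pentose phosphate genes had estimates below 0 in each comparison, and edgeR called 0, with 2, 2 and 3 at an unadjusted p under 0.05 in DeltaMxCre, AntiNRR and DeltaTamCre. The highest of these estimates was -0.004, in AntiNRR. There the authors' deposited table gave folds above 1 for Pgls (1.08) and Taldo1 (1.05). In DeltaTamCre it did so for Pgls (1.02), and its other folds of these genes were below 1. The branch medians were -0.161 in DeltaMxCre, -0.207 in AntiNRR and -0.200 in DeltaTamCre, and leaving out 1 library moved the first to between -0.272 (without MxCre 2) and -0.070 (without MxCre 3). The AntiNRR median was -0.337 without AntiNRR 1 and -0.129 without AntiNRR 3. G6pdx, which encodes the enzyme of the committed NADPH-forming step (chrX:74409483-74428880), was at 52.5, 42.5 and 39.2 CPM in DeltaMxCre against 41.2, 40.8 and 66.4 CPM in MxCre, at 37.1, 25.7 and 33.3 CPM in AntiNRR against 40.2, 51.3 and 42.8 CPM in IgG, and at 54.0, 63.0, 55.2 and 56.2 CPM in DeltaTamCre against 78.8, 63.1, 69.7 and 70.8 CPM in TamCre. The libraries overlapped in the first comparison and not in the others, where the closest DeltaTamCre and TamCre libraries were nearly equal. The estimates were -0.15 ± 0.21, -0.48 ± 0.21 and -0.31 ± 0.08 (adjusted p = 0.81, 0.232 and 0.142), and DESeq2 called the last (adjusted p = 0.0338).

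Tkt, which encodes transketolase of the non-oxidative arm (chr14:30549131-30574724), averaged 258 ± 43.0 CPM in DeltaMxCre against 352 ± 56.6 CPM in MxCre, and 196 ± 39.1 CPM in AntiNRR and 266 ± 14.9 CPM in IgG. It did not pass in either (-0.45 ± 0.14, adjusted p = 0.0876, and -0.44 ± 0.14, adjusted p = 0.0839). Its libraries overlapped between DeltaMxCre and MxCre, and not between AntiNRR and IgG. Tkt was called in DeltaMxCre without DeltaMxCre 1, and in AntiNRR with no filter, in a fit of the pair alone, or without MxCre 3 or AntiNRR 3. Pgls (6-phosphogluconolactonase) had an estimate of -0.53 ± 0.18 in DeltaMxCre (adjusted p = 0.113), whereas Taldo1 (transaldolase), Pgd (6-phosphogluconate dehydrogenase) and Rpia (ribose-5-phosphate isomerase) stayed between -0.23 and 0 throughout.

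Of 14 genes of the TCA cycle and the NADP-dependent isocitrate dehydrogenases, 13 had estimates below 0 in each comparison, and 1 was called, in DeltaMxCre. The gene with an estimate above 0 was Aco1 in DeltaMxCre, Ogdh in AntiNRR and Idh1 in DeltaTamCre. Idh2 encodes the mitochondrial NADP-dependent isocitrate dehydrogenase (chr7:80094845-80118608). It was at 220, 204 and 213 CPM in DeltaMxCre against 288, 269 and 275 CPM in MxCre. The spread within each group was narrow, the groups did not overlap, and Idh2 fell by 0.39 ± 0.10 on the log2 scale (means 212 ± 7.85 CPM in DeltaMxCre, 277 ± 9.28 CPM in MxCre, SD, n = 3 each; adjusted p = 0.0348). The call was lost without any 1 DeltaMxCre library, MxCre 1, MxCre 2, AntiNRR 3, IgG 2 or IgG 3, with no filter and in a fit of the pair alone, with adjusted p up to 0.195.

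Idh2 was at 290, 278 and 279 CPM in AntiNRR against 290, 288 and 285 CPM in IgG (-0.03 ± 0.10, adjusted p = 0.946), and at 262, 315, 334 and 320 CPM in DeltaTamCre against 376, 316, 330 and 327 CPM in TamCre (-0.13 ± 0.09, adjusted p = 0.508). These groups overlapped. The DeltaMxCre effect minus the AntiNRR effect was -0.36 ± 0.14 and did not pass (adjusted p = 0.27).

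Cs, which encodes citrate synthase at the entry of the cycle, was at 185, 156 and 157 CPM in DeltaMxCre against 160, 170 and 234 CPM in MxCre, at 139, 148 and 142 CPM in AntiNRR against 157, 171 and 169 CPM in IgG, and at 300, 353, 301 and 305 CPM in DeltaTamCre against 379, 304, 334 and 338 CPM in TamCre. Only the antibody pair did not overlap, and no estimate passed (-0.18 ± 0.13, -0.21 ± 0.13 and -0.11 ± 0.09, adjusted p = 0.564, 0.477 and 0.58). Idh3a, the catalytic subunit gene of the NAD-dependent enzyme, averaged 82.2 ± 4.15 CPM in AntiNRR and 112 ± 2.40 CPM in IgG, without overlap (-0.45 ± 0.14, adjusted p = 0.0643). It was called with upper-quartile scaling, with DESeq2, in a fit of the pair alone and without MxCre 3. Its partner subunits Idh3b and Idh3g had estimates of -0.02 and -0.08 in AntiNRR and of -0.44 and -0.49 in DeltaMxCre (adjusted p = 0.169 and 0.12). Mdh2, the mitochondrial malate dehydrogenase gene, had -0.41 ± 0.13 in DeltaMxCre (adjusted p = 0.0872). Aco1, whose protein also senses iron, Idh1, Ogdh, Dlst, Sucla2, Suclg1, Fh1 and Mdh1 were not called, with estimates between -0.45 and 0.17.

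The small shifts rested unevenly on single libraries. MxCre 3 was the highest MxCre library for 33 of 49 members, and its median member stood 0.319 above the mean of the SMARTer libraries on the log2(CPM + 1) scale. Without MxCre 3, the members' median in DeltaMxCre against MxCre was -0.094 and 31 estimates were below 0, whereas without MxCre 1 it was -0.324 with 42 below 0. The lower glycolysis median was -0.028 without MxCre 3 where it had been -0.305, and the TCA median -0.126 where it had been -0.325. The upper glycolysis median stayed at or below -0.303 whichever library was left out. Without AntiNRR 2 the members' median in AntiNRR against IgG was -0.103. TamCre 1 was the highest TamCre library for 37 members, and without it the median in DeltaTamCre against TamCre was -0.108 with 43 estimates below 0. That median was -0.213 without DeltaTamCre 2 and -0.208 without TamCre 2.

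**Figure D5:**
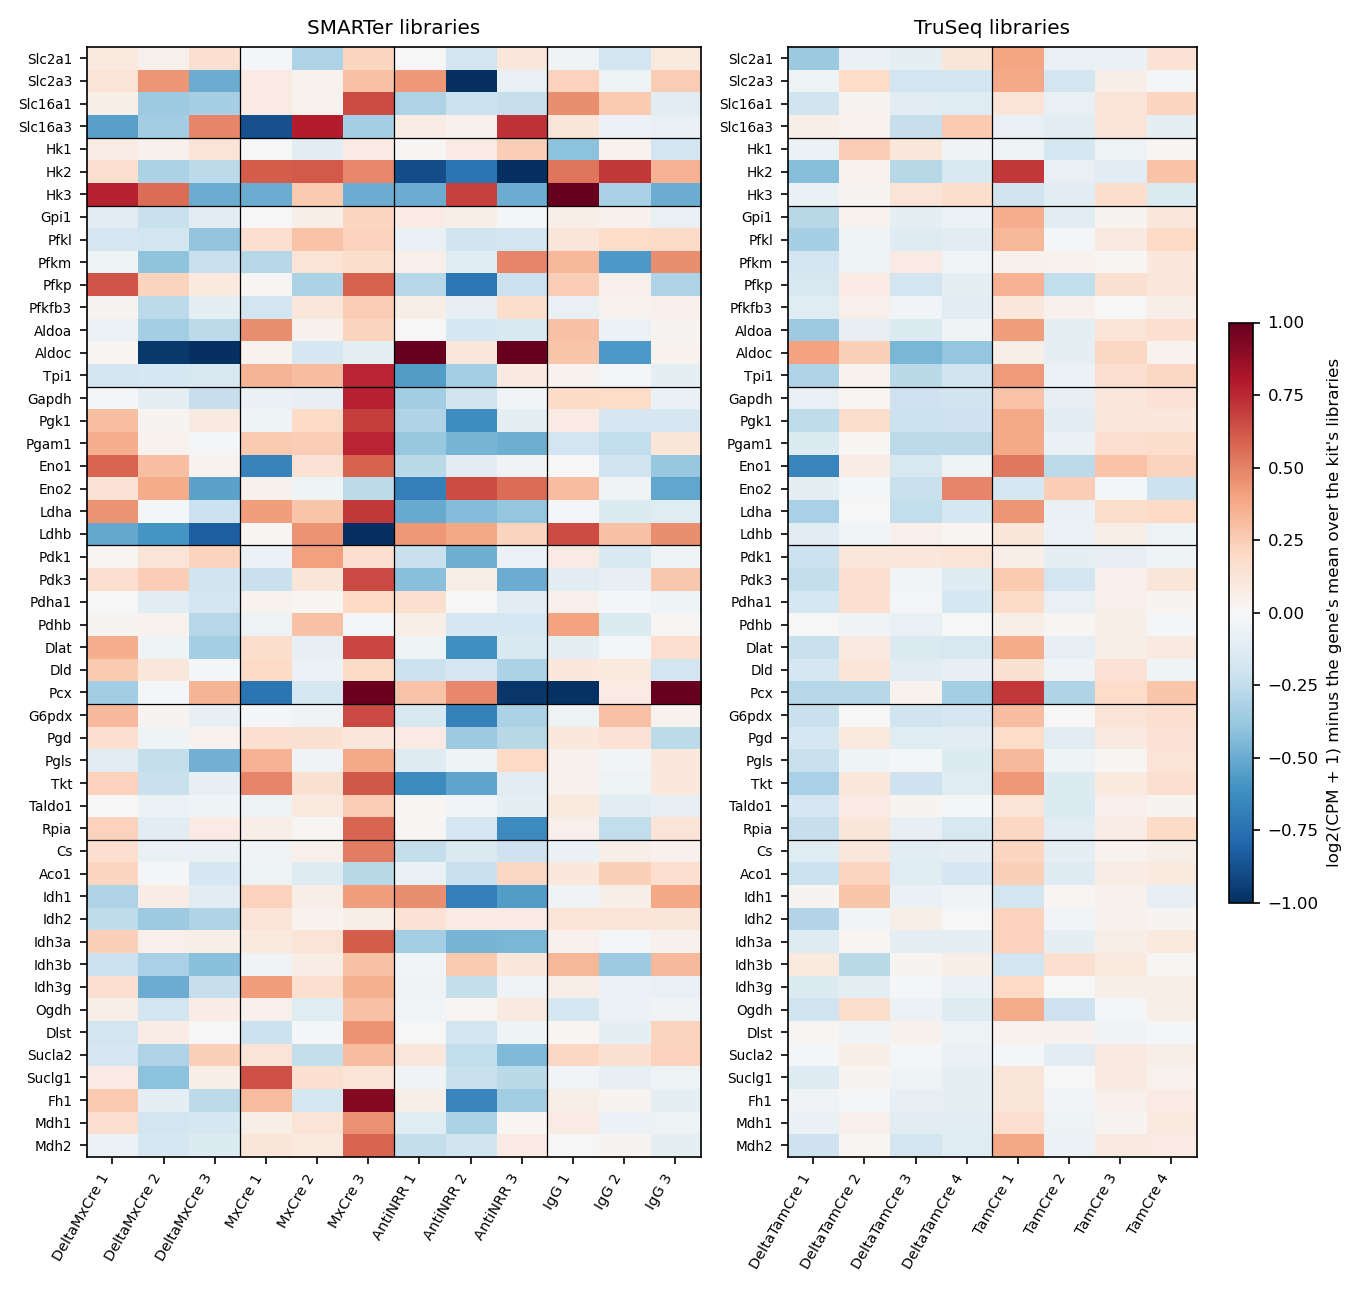
Each cell is a member's log2(CPM + 1) in 1 library minus its mean over the libraries of the same kit, with colours limited to -1 and 1 and lines between branches and groups. MxCre 3 and TamCre 1 are columns of mostly higher values, and the Hk2 row is low in AntiNRR.

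In the tests of the differences between perturbations, edgeR called 0 of 49 members for DeltaMxCre minus AntiNRR, 0 for DeltaMxCre minus DeltaTamCre and 0 for AntiNRR minus DeltaTamCre, where 1.23, 0.166 and 0.698 percent of genes were called. At an unadjusted p under 0.05 there were 3 (Hk2, Aldoc and Idh2), 0 and 2 (Hk2 and Aldoc) members, where 12.5, 6.79 and 11.8 percent of genes had such a p, and DESeq2 called 0, 0 and 1 (Hk2).

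Other genes of the same pathways were read from lists of enzymes and carriers, regulators and hypoxia-inducible genes. In DeltaMxCre, of 44 tested enzymes and carriers, Pkm (pyruvate kinase) fell by 0.44 ± 0.12 on the log2 scale (adjusted p = 0.0477). Pkm was at 457, 365 and 375 CPM in DeltaMxCre against 527, 488 and 612 CPM in MxCre, and its call held in 5 of 18 alternatives. It was lost without DeltaMxCre 2, DeltaMxCre 3, MxCre 1, MxCre 3, AntiNRR 2, AntiNRR 3 or any 1 IgG library. In AntiNRR, Suclg2, the GTP-forming succinyl-CoA ligase subunit gene, fell by 0.80 ± 0.20 (adjusted p = 0.0174). That call did not hold without AntiNRR 1 or any 1 IgG library. In DeltaTamCre, of 42 tested, Pgam2, the muscle phosphoglycerate mutase gene, fell by 0.87 ± 0.13 (adjusted p = 0.0405), a call held in 6 of 14 alternatives and lost without DeltaTamCre 2, DeltaTamCre 4 or any 1 TamCre library.

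Of 21 tested regulators, edgeR called 0 in DeltaMxCre and 0 in DeltaTamCre, where 2 and 1 had an unadjusted p under 0.05 and DESeq2 called 1 each (Myc). In AntiNRR, Mycn, a MYC family transcription factor gene, fell by 0.99 ± 0.23 (adjusted p = 0.012), Ppargc1b, a coactivator gene of mitochondrial biogenesis, fell by 0.92 ± 0.24 (adjusted p = 0.0261), and Prkaa1, which encodes a catalytic subunit of the energy sensor AMPK, rose by 0.70 ± 0.19 (adjusted p = 0.0369). The Mycn call was lost without AntiNRR 3 or IgG 1, that of Ppargc1b without AntiNRR 1, AntiNRR 2 or any 1 IgG library, and that of Prkaa1 without AntiNRR 2, AntiNRR 3 or any 1 IgG library. Mycn was at 20.5, 16.9 and 13.9 CPM in AntiNRR against 36.7, 32.9 and 32.7 CPM in IgG, while it was at 30.6, 27.02 and 27.8 CPM in DeltaMxCre against 19.8, 20.1 and 28.9 CPM in MxCre. Mycn was the regulator whose effects differed by edgeR, with the DeltaMxCre effect minus the AntiNRR effect at 1.30 ± 0.33 (adjusted p = 0.0433). That call was lost in each leave-one-out fit except those without MxCre 3 or AntiNRR 1. For AntiNRR minus DeltaTamCre, DESeq2 called Mycn and Txnip, and in AntiNRR against IgG it also called Arnt. Txnip was at 519, 235 and 236 CPM in AntiNRR against 207, 137 and 162 CPM in IgG.

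Myc, which drives many glycolytic genes, was at 69.7, 70.0 and 64.8 CPM in AntiNRR against 177, 111 and 117 CPM in IgG. It was at 108, 76.6 and 79.1 CPM in DeltaMxCre against 237, 135 and 106 CPM in MxCre, and at 402, 341, 500 and 453 CPM in DeltaTamCre against 553, 604, 549 and 568 CPM in TamCre. Only 1 of these libraries, DeltaMxCre 1, overlapped its controls. None of the estimates passed with edgeR (-0.99 ± 0.28, -0.86 ± 0.28 and -0.42 ± 0.11, adjusted p = 0.0927, 0.151 and 0.133), and DESeq2 called Myc in all 3. Of 14 tested hypoxia-inducible genes outside glycolysis, the mitophagy gene Bnip3l rose by 0.46 ± 0.12 in AntiNRR (adjusted p = 0.0336), a call lost without AntiNRR 1, AntiNRR 3, IgG 2 or IgG 3. There, 12 of the 14 had estimates above 0, with a median of 0.278 beside -0.018 over all genes. In DeltaMxCre, Ndrg1, a stress-responsive gene, fell by 0.77 ± 0.19 (adjusted p = 0.0293), with 126, 115 and 104 CPM in DeltaMxCre against 151, 150 and 286 CPM in MxCre and MxCre 3 far above the others. That call was lost without MxCre 3, any 1 DeltaMxCre or IgG library, AntiNRR 2 or AntiNRR 3.

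In the authors' deposited table, 48 members were matched, and at q under 0.1 it listed 12 lower and 0 higher in DeltaMxCre, 5 lower and 2 higher in AntiNRR, and 14 lower and 0 higher in DeltaTamCre. Over all 23284 genes of the authors' deposited table, with no filter on low values, 2.86 percent were lower and 2.60 percent higher in DeltaMxCre, 3.59 and 4.40 percent in AntiNRR, and 3.67 and 2.83 percent in DeltaTamCre. The authors' deposited table gave Hk2 folds of 0.601 for DeltaMxCre over MxCre (q = 0.0215), 0.282 for AntiNRR over IgG (q = 0.00143) and 0.673 for DeltaTamCre over TamCre (q = 0.00246). For AntiNRR, the authors' deposited table gave folds above 1 for Aldoc (2.26, q = 0.0107) and Hk1 (1.28, q = 0.0518). At q under 0.1, a looser threshold than the 0.05 used with edgeR, its tests passed more members than edgeR did. For Hk2 its q was also under 0.05 in all 3 comparisons. In DeltaMxCre, Aldoa (q = 0.0473), Ldhb (q = 0.0188) and Tkt (q = 0.0225) were under 0.05 there without an edgeR call. Idh2, which edgeR called, had q = 0.0965. In AntiNRR, Slc16a1 (q = 0.00143), Tkt (q = 0.0427) and Aldoc were under 0.05 without an edgeR call. In DeltaTamCre, where edgeR called 0, Aldoa, Dlat, Ldha, Mdh2, Pfkl, Pgam1, Pgk1, Rpia, Tkt and Tpi1 also had q under 0.05. Their q ran from 0.00246 (Ldha and Pgam1) to 0.0396 (Pgk1), with folds below 1.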

How the data were processed

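RNA from sorted DN3 thymocytes was sequenced in 20 libraries of 6 groups. The submitters' processing notes name FastQC 0.10.0, TopHat2 2.0.9, Bowtie2 2.1.0.0, Cufflinks, Cuffdiff 2.1.1 and the build mm10. Their annotation and strand setting are not stated there. The authors' deposited count table holds expected counts, of which 98.38 percent are whole, and these were rounded. The authors' deposited comparison table holds group-mean FPKM, and, per the file headers, its fold is a ratio of group means with a p-value and a q-value.

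The test across genes was that of edgeR 4.0.16 under R 4.3.3 (filterByExpr filter, TMM scaling, quasi-likelihood F test with robust dispersions, and Benjamini-Hochberg adjustment over all genes tested), in 1 fit of 12 SMARTer and 1 of 8 TruSeq libraries. Standard errors therefore draw on all groups of a fit. Effects were compared between the SMARTer pairs in the fit of 12, and with DeltaTamCre in a fit of all 20. DESeq2 1.42.0, other scalings, no filter, pair-only fits, a replicate block and leave-one-out fits were alternatives. The fits were tested on simulated data. Per-library values were named for Hk2, each called member and entry or rate-controlling enzymes. The members, lists and motifs were chosen with earlier results of these data known. Of the other pathway genes, 4 were matched under older symbols, Pkm as Pkm2. A called gene among these others is not reported here. Promoters are from RefSeq (GRCm38.p6), where 47 members matched.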

Additional observations from a re-analysis of the deposited data

Results flagged for a closer look

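Within the DeltaTamCre and TamCre groups, the highest and lowest library of each member was set against the others by Dixon's criterion, which picks out about 1 in 20 groups by chance. Of 98 groups examined, 5 stood out. Pgk1 was at 425 CPM in DeltaTamCre 2 against 315 to 326 CPM in the other DeltaTamCre libraries, and Cs at 353 CPM in the same library against 300 to 305 CPM. Pdk1 was at 116 CPM in DeltaTamCre 1 against 145.5 to 149 CPM. Pcx was at 2.97 CPM in DeltaTamCre 3 against 2.06 to 2.18 CPM, and Slc16a3 at 1.73 CPM in TamCre 3 against 1.31 to 1.37 CPM in the other TamCre libraries. Groups of 3 libraries were not examined in this way.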

How the results depend on the processing

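For members called in DeltaMxCre against MxCre, where the reported number is 3, the number was 1 with no filter (Tpi1), 5 with the replicate block, 5 with DESeq2, 0 in a fit of the pair alone, and 0 to 4 when 1 library was left out (0 without DeltaMxCre 2 or DeltaMxCre 3, 4 without DeltaMxCre 1, namely Idh3g, Ldha, Slc16a1 and Tkt). For AntiNRR against IgG, where it is 1, it was 2 with upper-quartile scaling, 2 with no filter, 2 with the replicate block, 2 with DESeq2, 5 in a fit of the pair alone, and 1 to 4 when 1 library was left out (4 without MxCre 3). For DeltaTamCre against TamCre it was 5 with DESeq2 and 0 to 0 in the leave-one-out fits. For DeltaMxCre minus AntiNRR and for DeltaMxCre minus DeltaTamCre it was 0 to 1 when 1 library was left out (Ldhb without MxCre 3). For AntiNRR minus DeltaTamCre it was 1 with DESeq2, and 0 to 1 when 1 library was left out (Hk2 without TamCre 1). The causes were not tested. Among estimates that were never called, the sign turned in some leave-one-out fits. In DeltaMxCre, Slc2a1 ranged from -0.004 (without MxCre 2) to 0.276, Pdk1 from -0.166 to 0.071 (without MxCre 2), G6pdx from -0.274 to 0.134 and Cs from -0.284 to 0.017 (both without MxCre 3). In AntiNRR, Slc2a1 ranged from -0.053 to 0.104 and Pfkm from -0.243 to 0.218, below 0 without AntiNRR 3 or IgG 2. Over all genes, DeltaMxCre against MxCre had 399 calls, 695 with DESeq2 and 183 in the pair alone, and DeltaTamCre against TamCre had 12 calls and 502 with DESeq2. The replicate numbers did not pair the libraries, since the deviations of same-numbered libraries correlated at -0.357 to 0.024. With the block, Aldoa and Tkt were also called in DeltaMxCre, Tkt in AntiNRR, and no member in DeltaTamCre. At SMARTer totals of at most 19133149 counts, Hk3, Eno2, Slc16a3 and Pcx had SE of 0.78 or more there.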
